A study of Homo sapiens with 4 samples.

Results

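The hnRNP, SR and SF3 splicing factor genes were compared between 2-D and 3-D grown Elf1 cells. They are 44 genes of a list made by gene family with earlier results of these data known, of 60564 gene identifiers with counts. Of them, 20 code for heterogeneous nuclear ribonucleoproteins (hnRNPs), 12 for serine/arginine-rich (SR) splicing factors, 9 for subunits of splicing factor 3 (SF3), and 3 are TRA2A, TRA2B and U2AF2. All 44 passed the filter on low counts and are among the 22555 genes tested.

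Elf1 is an ESC line in the naïve state, derived from a human embryo of 8 cells, and its RNA was measured by RNA-seq after depletion of ribosomal RNA. The 2-D grown cells were attached to coated plates. The study's methods describe 2-D growth on mouse feeder cells and a move to Matrigel before 3-D culture. They do not say which coating the sequenced 2-D cells had. For 3-D culture, single cells were enclosed in scaffolds of 2 polyethylene glycol polymers, PEG-8-SH and PEG-8-Acr, as these assembled, and were kept there for 21 days. Both conditions used the same medium with FGF2, CHIR99021, PD03296501 and LIF. Each condition had 2 independent biological replicates of this 1 line, so 4 libraries were compared. No other line or time point was part of the design. The culture time of the 2-D samples was not given. The study describes routine passaging in 2-D and slower growth in 3-D, so culture form, passaging and growth rate cannot be told apart.

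Precursor mRNAs are spliced by the spliceosome, whose U2 particle recognizes the branch site near the end of an intron. SF3a and SF3b are the protein complexes of that particle, and U2AF2 binds the pyrimidine-rich tract beside it. SR proteins bind exons through RNA recognition motifs and usually favor the use of nearby splice sites, while hnRNPs coat nascent RNA, often oppose SR proteins at the same exons and also act in RNA export, stability and translation. Many of these genes hold exons whose inclusion exposes their own RNA to decay, so that their proteins limit their own mRNA. Only gene totals were counted here, and the isoforms were not analysed.

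Values are normalized counts per 1e6 counts of a library (CPM), scaled with edgeR's TMM factors. A gene was called when edgeR's quasi-likelihood test gave a Benjamini-Hochberg adjusted p below 0.05 over all 22555 genes, and fold changes are 3-D over 2-D grown cells, on the log2 scale. Total counts ranged from 30114220 to 33833778 in 2-D and from 18276147 to 21154409 in 3-D, so the 3-D values are the less precise. Over all genes, 3-D culture gave 1024 calls higher and 758 lower. When libraries were scaled by their totals alone, these became 514 higher and 1879 lower. DESeq2 called 511 higher and 284 lower over all genes. Counts at an unadjusted p below 0.05 are given for the lists only. The share of all genes at that level was not worked out, so these counts have no background to be read against. The pluripotency genes POU5F1, NANOG and LIN28A were present in all libraries, at 109 to 132, 197 to 216 and 1721 to 1812 CPM. The 7 core pluripotency markers had 0 calls by edgeR in either direction, against 3 higher and 1 lower at an unadjusted p below 0.05 and 1 higher call by DESeq2. Of the 9 fibroblast and feeder markers, 7 were tested and 4 were called higher (57.1%, against 4.54% of all genes), COL3A1 by 0.73, POSTN by 0.65, COL1A1 by 0.29 and THY1 by 0.22. COL1A2, the most abundant of the list at 321 CPM in 2-D and 313 CPM in 3-D on average, changed by -0.037 without a call. PDGFRA (0.30) and PDGFRB (0.017) were not called either. The summed level of the 9 markers was 534 to 542 CPM in 2-D and 553 to 604 CPM in 3-D. The fibroblast markers DCN and LUM stayed below 1 CPM in every library. No neural, mesoderm, endoderm or trophoblast marker was called by edgeR or by DESeq2. At an unadjusted p below 0.05, 3 mesoderm, 1 endoderm and 1 trophoblast marker were higher, with HAND1 counted on both the mesoderm and the trophoblast list. The part of fibroblast RNA in the results was not tested. In bulk RNA, fewer cells of a kind and less RNA per cell cannot be told apart.

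Promoters are shown for the 2 called genes with the largest change in each of the hnRNP, SR and SF3 groups, because these genes carry the differences described next. Each is the 250 bases before the start site in RefSeq (GRCh38.p14), in the direction of the gene. Capitals mark a GC box (GGGCGG or, on the other strand, CCGCCC), the core of Sp/KLF factor sites, and the short form of a cAMP response element (CRE) (TGACG or CGTCA).
HNRNPUL1 promoter, chr19:41264122-41264371, plus strand: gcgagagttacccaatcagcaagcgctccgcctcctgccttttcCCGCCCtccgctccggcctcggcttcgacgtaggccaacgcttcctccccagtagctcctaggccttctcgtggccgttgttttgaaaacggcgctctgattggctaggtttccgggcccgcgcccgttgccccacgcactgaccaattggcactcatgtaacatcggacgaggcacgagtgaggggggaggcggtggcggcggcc
HNRNPA3 promoter, chr2:177212544-177212793, plus strand: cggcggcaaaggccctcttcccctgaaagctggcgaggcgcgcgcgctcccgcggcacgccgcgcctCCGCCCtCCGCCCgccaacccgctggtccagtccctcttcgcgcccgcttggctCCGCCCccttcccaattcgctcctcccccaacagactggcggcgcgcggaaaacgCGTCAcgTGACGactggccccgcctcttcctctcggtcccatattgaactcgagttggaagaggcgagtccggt
SRSF9 promoter, chr12:120469749-120469998, minus strand: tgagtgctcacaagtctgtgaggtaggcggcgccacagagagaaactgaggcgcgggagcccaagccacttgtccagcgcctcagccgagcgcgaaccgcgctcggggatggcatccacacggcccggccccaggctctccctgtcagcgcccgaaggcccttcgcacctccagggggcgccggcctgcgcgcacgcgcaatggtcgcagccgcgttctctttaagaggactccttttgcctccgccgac
SRSF1 promoter, chr17:58007247-58007496, minus strand: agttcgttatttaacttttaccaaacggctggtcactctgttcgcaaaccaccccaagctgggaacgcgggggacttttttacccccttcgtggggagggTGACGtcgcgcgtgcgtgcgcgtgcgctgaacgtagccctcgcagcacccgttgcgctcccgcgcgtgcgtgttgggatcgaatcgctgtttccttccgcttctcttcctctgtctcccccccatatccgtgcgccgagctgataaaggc
SF3A2 promoter, chr19:2236574-2236823, plus strand: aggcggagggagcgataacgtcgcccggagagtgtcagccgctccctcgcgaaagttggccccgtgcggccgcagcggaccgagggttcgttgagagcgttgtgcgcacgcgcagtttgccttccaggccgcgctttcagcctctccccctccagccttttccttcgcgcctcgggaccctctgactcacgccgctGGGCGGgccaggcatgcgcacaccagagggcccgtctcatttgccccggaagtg
SF3B4 promoter, chr1:149927804-149928053, minus strand: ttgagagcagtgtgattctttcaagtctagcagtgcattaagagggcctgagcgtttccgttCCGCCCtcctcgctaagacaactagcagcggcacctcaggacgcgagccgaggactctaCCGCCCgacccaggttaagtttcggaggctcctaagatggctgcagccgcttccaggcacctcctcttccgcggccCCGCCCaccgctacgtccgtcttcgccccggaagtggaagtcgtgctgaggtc
A GC box stood in the printed promoters of HNRNPUL1, HNRNPA3, SF3A2 and SF3B4, and in neither of those of SRSF9 and SRSF1. Of the other matched genes called higher, HNRNPC, HNRNPD, SF3A1 and SF3A3 held 1 GC box each, and HNRNPA2B1, HNRNPM, HNRNPR and SF3B2 held 0. Among the matched genes that lay lower without a call, SRSF12 held 4 GC boxes, and SRSF7 and HNRNPLL held 3 each. In the same set HNRNPL and SRSF6 held 2 each, HNRNPA0, HNRNPH1 and SF3B5 held 1 each, and SRSF3, SRSF8 and SRSF11 held 0. Whether the motif goes with direction was not tested. HNRNPA3 held both motifs, with 3 GC boxes and 2 short CREs. RefSeq promoters were matched for 40 members, and a GC box was present in 27 of them, in 15 of 19 hnRNP, 4 of 11 SR and 6 of 8 SF3 promoters, against 42.6% of 35116 promoters of the same length. The short CRE was present in 21 of the 40, in 12 hnRNP, 5 SR and 3 SF3 promoters, against 21.2% of all. The letters do not overlap between the motifs, and a match describes the sequence only.

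The hnRNP genes were mostly higher in 3-D grown cells. Of 20 genes, 8 were called higher (40.0%, against 4.54% of all genes tested) and 0 lower (3.36% of all genes). At an unadjusted p below 0.05, 13 were higher and 3 lower, and DESeq2 called 8 higher and 0 lower. The median log2 fold change was 0.11, against -0.000135 over all genes. In 15 genes both 3-D libraries lay above both 2-D libraries, in 4 both lay below, and 1 overlapped, against 25.4% above and 25.1% below among all genes. Their summed level was 11819 and 11744 CPM in 2-D and 13106 and 12528 CPM in 3-D. On average this was 1.18% in 2-D and 1.28% in 3-D of the library size after TMM scaling, not of the raw counts.

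**Figure D1:**
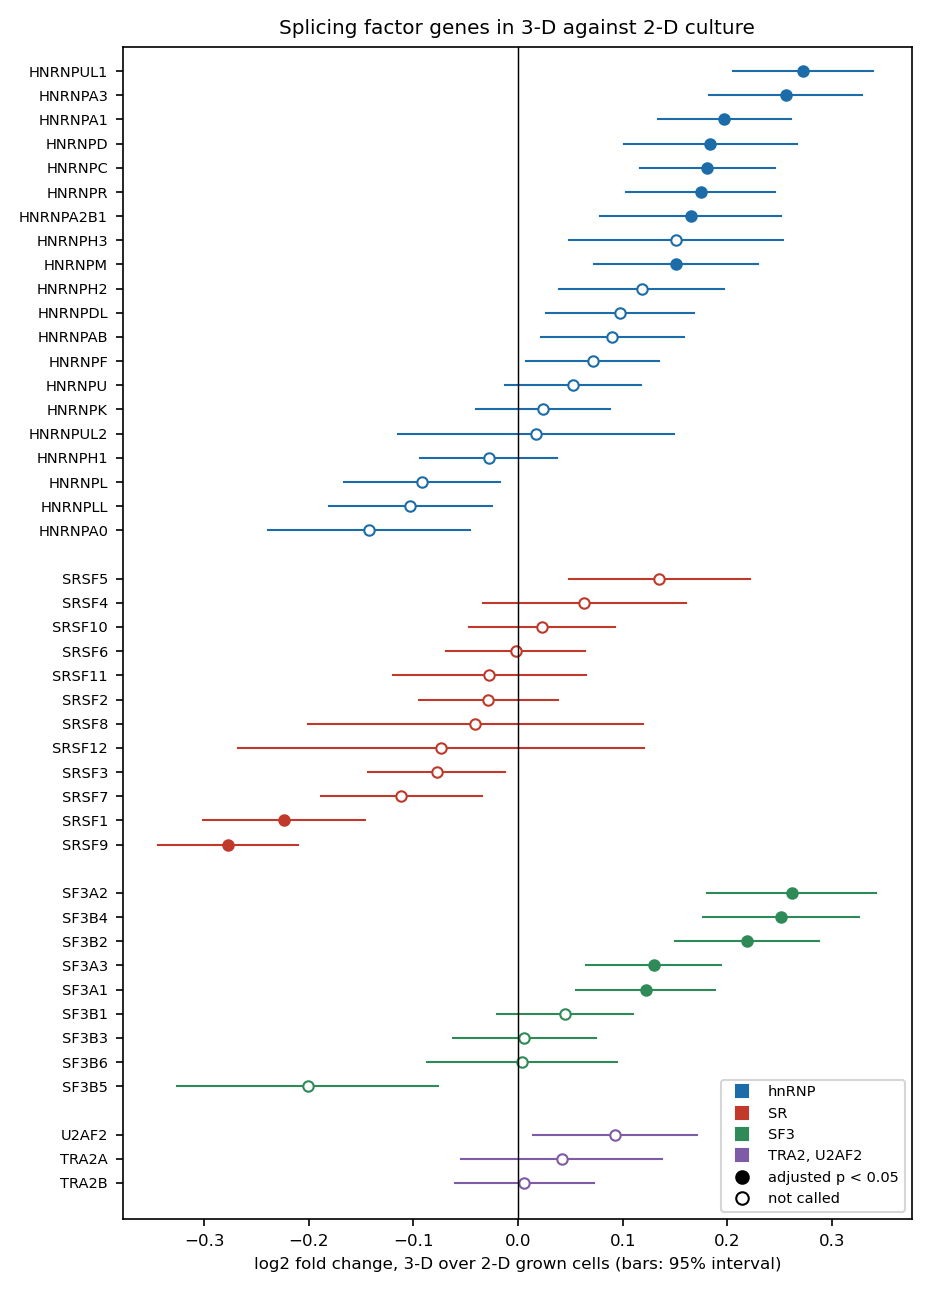
Log2 fold change of each splicing factor gene, 3-D over 2-D grown cells (horizontal axis), with the 95% interval as a bar and called genes as filled points. Filled hnRNP (blue) and SF3 (green) points lie right of 0, between 0.12 and 0.27, and the 2 filled SR (red) points lie left of 0.

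HNRNPUL1, a relative of the nuclear scaffold protein hnRNP U, showed the largest rise of the group. It measured 312 and 306 CPM in 2-D and 378 and 369 CPM in 3-D, a log2 change of 0.27 ± 0.031 (SE; n = 2 and 2; edgeR adjusted p = 0.000216). Both 3-D libraries were above both 2-D libraries, with a gap many times the distance within either pair. Its exons share 9.06% of their bases with genes on the opposite strand, among them TGFB1, which was called higher by 0.35. The kit marks strand, but the setting used in counting was not stated, so the part of such reads was not tested.

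HNRNPA3, an RNA transport and splicing protein of the A/B subfamily, was close behind. Its level was 760 and 754 CPM in 2-D and 929 and 878 CPM in 3-D, a log2 change of 0.26 ± 0.034 (SE; edgeR adjusted p = 0.00067). NFE2L2 lies opposite to it over 53.7% of its exonic bases and measured 61.3 CPM in 2-D and 65.3 CPM in 3-D on average, with a change of 0.089 that was not called. HNRNPA3 and HNRNPUL1 were among the genes that the study displayed for their change in these same libraries, so their direction here is no independent evidence.

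HNRNPA1 and HNRNPA2B1, the most abundant A/B proteins and classical antagonists of SRSF1 at splice sites, both rose. HNRNPA1 measured 1737 and 1746 CPM in 2-D and 2022 and 1971 CPM in 3-D, a log2 change of 0.20 ± 0.029 (SE; edgeR adjusted p = 0.00149). HNRNPA2B1 measured 1535 and 1520 CPM in 2-D and 1794 and 1630 CPM in 3-D, a change of 0.16 ± 0.040 (SE; edgeR adjusted p = 0.0245). The 3-D libraries of HNRNPA2B1 lay further apart than those of HNRNPA1, and its call was lost under a likelihood ratio test and with library size only. CBX3, on the strand opposite to HNRNPA2B1, was called lower by 0.20 (-0.20), which is the other direction. HNRNPA0, an A/B gene without introns, measured 274 and 269 CPM in 2-D and 260 and 232 CPM in 3-D, and its change of -0.14 was not called (edgeR adjusted p = 0.0725), although it was called lower under several settings, among them library size only, no filter on low counts and leaving out 3-D replicate 1. HNRNPAB, the remaining A/B gene, had a change of 0.090 that was not called.

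The other hnRNP calls were HNRNPD, HNRNPC, HNRNPR and HNRNPM. HNRNPD (AUF1), which binds AU-rich elements in unstable mRNAs, measured 538 and 535 CPM in 2-D and 635 and 583 CPM in 3-D, a change of 0.18. HNRNPC, which binds uridine runs in nascent transcripts, measured 764 and 775 CPM against 879 and 866 CPM, a change of 0.18. HNRNPR was at 260 and 254 CPM against 296 and 283 CPM, a change of 0.17, and the splicing regulator HNRNPM at 508 and 499 CPM against 579 and 539 CPM, a change of 0.15. In each of these 4 genes the 3-D libraries were above the 2-D libraries, with edgeR adjusted p from 0.00262 (HNRNPC) to 0.0226 (HNRNPM). A gene on the strand opposite to HNRNPM, over 6.15% of its exonic bases, was called higher by 0.70, from 32.7 to 53.0 CPM on average, and the part of its reads was not tested. The call of HNRNPM was lost under a likelihood ratio test, with library size only, with length and GC offsets and without 2-D replicate 2. That of HNRNPD was lost with library size only, and that of HNRNPR without 2-D replicate 2. HNRNPA1, HNRNPA3, HNRNPC and HNRNPUL1 were called in 13 of 13 alternatives.

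Close paralogs of called genes did not always share the call. HNRNPUL2, the nearest relative of HNRNPUL1, was the lowest of the group with 31.0 and 30.7 CPM in 2-D and 31.5 and 31.0 CPM in 3-D, and its interval ran from -0.12 to 0.15. It shares 44.3% of its exonic bases on the same strand with HNRNPUL2-BSCL2, which had 0 counts in every library. How reads falling on both genes were counted is not stated. Any loss of HNRNPUL2 reads there, and so its low level, was not tested. HNRNPU, the scaffold attachment factor, was abundant at 1507 and 1491 CPM in 2-D and 1577 and 1532 CPM in 3-D, with a change of 0.053 and an interval from -0.013 to 0.12. HNRNPDL, the paralog of HNRNPD, had a change of 0.097, and its edgeR adjusted p was 0.0958. Within the F/H genes, which bind runs of G, HNRNPH3 had a change of 0.15 with 3-D libraries at 318 and 280 CPM, HNRNPH2 0.12, HNRNPF 0.071 and HNRNPH1 -0.028, none of them called. The poly(C)-binding HNRNPK was at 882 and 876 CPM in 2-D against 902 and 886 CPM in 3-D. HNRNPL and HNRNPLL, which bind CA-rich elements, had changes of -0.092 and -0.10, both with 3-D libraries below 2-D libraries and neither called.

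The size of the hnRNP changes moved with the 3-D library used. In 18 of 20 hnRNP genes 3-D replicate 1 lay above 3-D replicate 2, against 50.1% of all genes tested. In 2-D, replicate 1 lay above replicate 2 in 15 of the 20, against 51.3% of all genes. Without 3-D replicate 2, 13 genes were called higher, and without 3-D replicate 1, HNRNPA0 and HNRNPL were called lower. The median log2 change was 0.069 when 3-D replicate 1 was left out and was 0.15 when the other was. With library size only, 5 were called higher and 3 lower, the last 3 being HNRNPA0, HNRNPL and HNRNPLL.

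**Figure D2:**
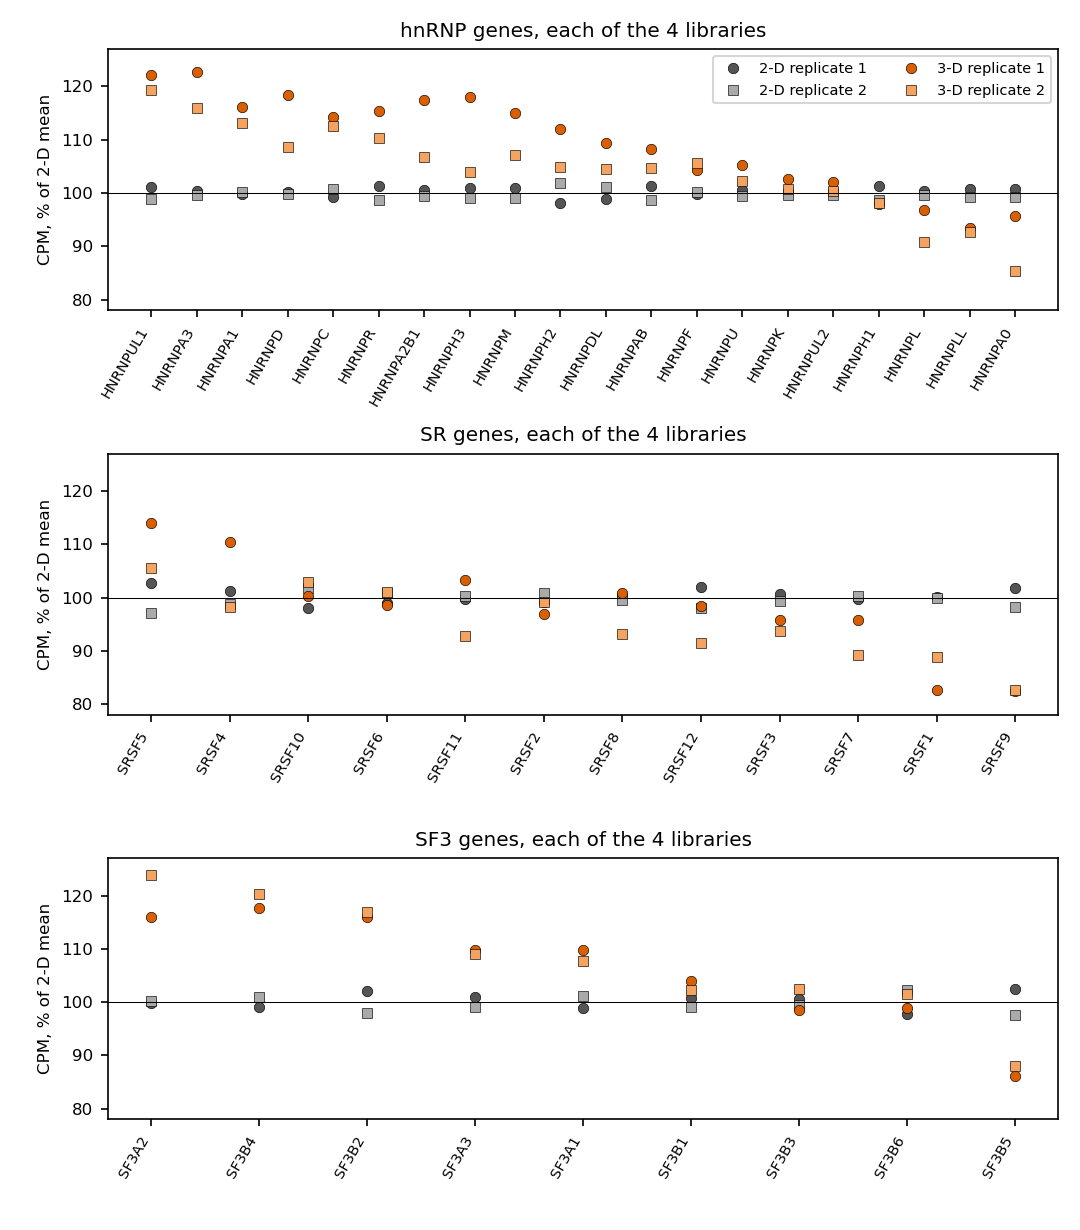
CPM of each gene in each of the 4 libraries as a percentage of its 2-D mean (vertical axis), for hnRNP, SR and SF3 genes from the largest to the lowest log2 change. Of the 20 hnRNP genes, 18 have 3-D replicate 1 (circle) above 3-D replicate 2 (square), and for HNRNPUL1 the 3-D points, at 378 and 369 CPM, stand clear of the 2-D points, at 312 and 306 CPM.

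The SR genes had another pattern. Of 12, 2 were called lower (16.7%, against 3.36% of all genes) and 0 higher. At an unadjusted p below 0.05, 4 were lower and 1 higher, and DESeq2 called 2 lower and 0 higher. The median log2 change was -0.035, with 9 genes below 0 and 3 above. In 1 gene both 3-D libraries lay above both 2-D libraries, in 4 both lay below, and 7 overlapped. Among all genes, 25.4% lay above and 25.1% below. With length and GC offsets the median was -0.0090 with 6 genes on each side of 0, and without 3-D replicate 1 it was -0.097, so the position of the group as a whole was not stable. Their summed level was 2343 and 2338 CPM in 2-D and 2281 and 2226 CPM in 3-D.

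SRSF9 and SRSF1, paralogs that both carry a pseudo-RRM beside a true RNA recognition motif, were the SR genes that fell. SRSF9 measured 149 and 144 CPM in 2-D and 121 and 121 CPM in 3-D, a log2 change of -0.28 ± 0.031 (SE; edgeR adjusted p = 0.000205). SRSF1, the prototype SR protein with roles in splicing, export and translation, measured 198 and 198 CPM in 2-D and 163 and 176 CPM in 3-D, a change of -0.22 ± 0.036 (SE; edgeR adjusted p = 0.00219). In both genes the conditions did not overlap, and both were called lower in 13 of 13 alternatives. GATC, which lies opposite to SRSF9 over 43.6% of the exonic bases of SRSF9, was called lower too, by 0.30 (-0.30), from 107 to 87.0 CPM on average. Without the strand setting of the counting, the fall of SRSF9 and that of GATC cannot be told apart. SRSF1 shares 32.7% of its exonic bases with a gene on the same strand that had 0 counts. How reads falling on both genes were counted is not stated, so any loss of SRSF1 reads was not tested. On the opposite strand, 7.61% is shared with a gene whose change was 0.041.

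The remaining 10 SR genes were not called. SRSF7 (-0.11) and SRSF3 (-0.078), a pair of small SR proteins that couple splicing to mRNA export, had 3-D libraries below 2-D libraries. Both were called lower with library size only and without 3-D replicate 1, which raised the SR genes called lower to 4 and 5. SRSF5 was at 143 and 135 CPM in 2-D and 158 and 146 CPM in 3-D, with the highest SR change of 0.14 (edgeR adjusted p = 0.0597). It was called higher under several settings, among them no filter on low counts, length and GC offsets and leaving out 2-D replicate 1 or 3-D replicate 2. Its paralogs SRSF4 and SRSF6 had changes of 0.063 and -0.0023. SRSF2, which recognizes both C- and G-rich exon motifs, measured 261 and 265 CPM against 255 and 261 CPM, with an interval from -0.095 to 0.038. SRSF10 and SRSF11 had changes of 0.023 and -0.028, and the low SRSF8 and SRSF12, at 19.4 to 21.0 and 11.5 to 12.9 CPM, had the widest intervals of the group, which cross 0.

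SF3 genes were mostly higher in 3-D grown cells. Of 9, 5 were called higher (55.6%, against 4.54% of all genes) and 0 lower, while 5 were higher and 1 lower at an unadjusted p below 0.05. DESeq2 called 3 higher and 0 lower. The median log2 change was 0.12, and the summed level was 1871 and 1850 CPM in 2-D and 1971 and 1989 CPM in 3-D. With library size only, 3 were called higher and 1 lower.

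All 3 subunits of SF3a were called. SF3A2 rose from 84.0 and 84.2 CPM to 97.5 and 104 CPM, a log2 change of 0.26 ± 0.037 (SE; edgeR adjusted p = 0.00109). SF3A3, at 183 and 180 CPM in 2-D and 199 and 198 CPM in 3-D, had a change of 0.13 (edgeR adjusted p = 0.0184), and SF3A1, at 192 and 196 CPM against 213 and 209 CPM, one of 0.12 (edgeR adjusted p = 0.0286). The calls of SF3A1 and SF3A3 were lost under DESeq2, a likelihood ratio test, library size only and without either 2-D replicate, which left 3 SF3 genes called higher in each of these.

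Among SF3b subunits the values were divided. SF3B4, which contacts the pre-mRNA near the branch site, rose from 75.5 and 76.9 CPM to 89.7 and 91.8 CPM, a log2 change of 0.25 ± 0.034 (SE; edgeR adjusted p = 0.000815). SF3B2, which binds SF3B4, rose from 253 and 242 CPM to 287 and 289 CPM, a change of 0.22 ± 0.032 (SE; edgeR adjusted p = 0.00123). SF3A2, SF3B2 and SF3B4 were called in 13 of 13 alternatives. SF3B1, the large scaffold subunit often mutated in myeloid disease, measured 527 and 518 CPM in 2-D and 543 and 535 CPM in 3-D, a change of 0.045 with an interval from -0.020 to 0.11. SF3B3 and SF3B6, the latter a small protein beside the branch site adenosine, had changes of 0.0060 and 0.0038, with intervals from -0.062 to 0.074 and from -0.087 to 0.094. SF3B5, the smallest subunit, measured 40.6 and 38.7 CPM in 2-D and 34.2 and 34.9 CPM in 3-D, a change of -0.20 that just missed the threshold (edgeR adjusted p = 0.0516). It was called lower under several settings, among them no filter on low counts, at least 10 counts in every library, library size only and leaving out 3-D replicate 2. The difference between subunits was not tested.

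TRA2A, TRA2B and U2AF2 had 0 calls by edgeR and by DESeq2, with 1 higher and 0 lower at an unadjusted p below 0.05. U2AF2 was at 213 and 203 CPM in 2-D and 227 and 216 CPM in 3-D, with a change of 0.093 (edgeR adjusted p = 0.153). The SR-like exon activators TRA2A and TRA2B had changes of 0.042 and 0.0061, and their libraries overlapped. Without 3-D replicate 2, U2AF2 and TRA2A were called higher.

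Levels were compared between genes as CPM per kilobase of merged exons. HNRNPA1 was the highest hnRNP gene in 2-D at 260 CPM per kb, ahead of HNRNPAB at 191 and HNRNPK at 154, and these 3 were separate over the 4 libraries. HNRNPA2B1, HNRNPA3, HNRNPF and HNRNPC followed between 121 and 106 CPM per kb, each overlapping with the next. HNRNPUL2 was lowest at 5.71 CPM per kb, with the limit of its shared exons given above. SRSF2 (88.3), SRSF3 (73.6) and SRSF7 (57.6) led the SR genes in CPM per kb, followed by SRSF9 (37.0) and SRSF6 (36.2), which overlapped, while SRSF12 was lowest at 2.78. SF3 levels spanned a narrow range, from 57.5 CPM per kb for SF3B5 to 25.3 for SF3B2. Part of the order rests on the length used. Per kilobase of the canonical transcript SF3B6 led the SF3 genes at 92.3 and SF3B2 came in place 3 at 75.7, and HNRNPA2B1 was second among hnRNP genes at 421.

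**Figure D3:**
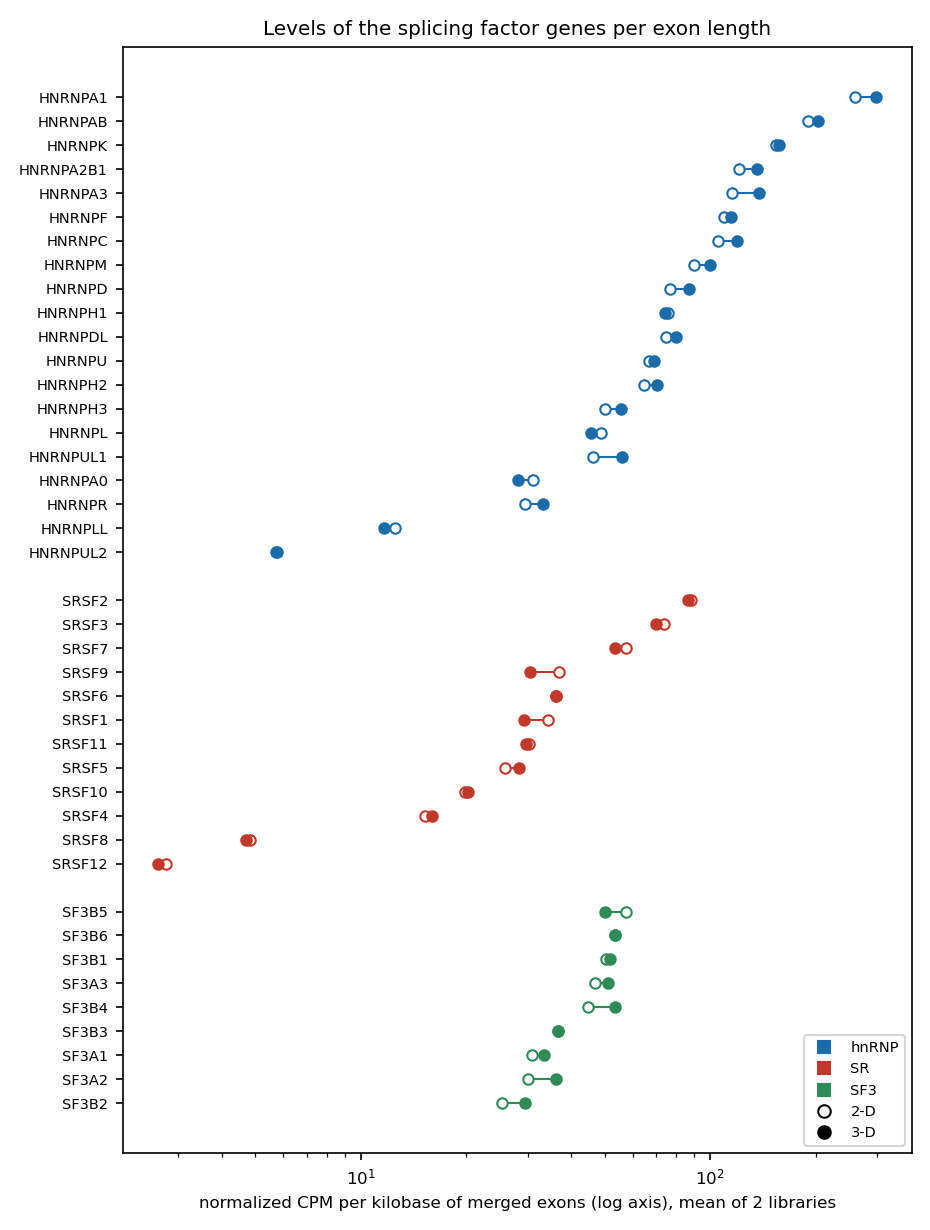
Mean normalized CPM per kilobase of merged exons (log axis) of the hnRNP, SR and SF3 genes in 2-D (open) and 3-D (filled), ordered by the 2-D level. Levels run from 2.78 (SRSF12) to 260 (HNRNPA1) in 2-D, and the distance between the points of a gene is small beside the spread between genes.

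Reads can be shared with copies and neighbors. No member had another copy in hg38 over at least 80% of its transcript at 98% identity, and HNRNPK and HNRNPL had one at 95% identity. Pseudogenes named for a member numbered 138 in the files, and 29 were tested. Only HNRNPA3P6 among these 29 was called, higher by 0.45. The 74 HNRNPA1 pseudogenes held 83.3 to 99.6 CPM per library in all, or 4.82% of the CPM of HNRNPA1, and the 16 HNRNPA3 pseudogenes 2.92% of that of HNRNPA3. In all, 9 members shared more than 10% of their exonic bases with another gene on either strand.

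Genes that act with these factors were followed on 4 other lists. The list of SR-related proteins holds mostly proteins that carry arginine and serine repeats outside the classical family. It included 9 of 20 genes called higher (45.0%, against 4.54%) and 0 lower, with a median change of 0.11. None was lower at an unadjusted p below 0.05 or by DESeq2. The largest rises were those of SCAF4 (0.28), the splicing coactivator subunits SRRM1 (0.27) and SRRM2 (0.26), PNN (0.25) and SRRT (0.21). SRRM2 measured 1137 and 1131 CPM in 2-D and 1344 and 1364 CPM in 3-D. SRRM1 and SRRM2 were also among the genes displayed by the study for their change in these libraries.

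Partners of U2 at the branch site had 7 of 14 genes called higher (against 4.54% of all genes) and 0 lower (3.36% of all genes) by edgeR, but 0 by DESeq2 and 0 higher with library size only. At an unadjusted p below 0.05, 11 were higher and 1 lower. Of the called, PUF60 (0.90) and U2AF1 (0.61) have near-identical copies in hg38, so their counts are uncertain. PUF60 measured 9.18 and 15.6 CPM in 2-D and 16.1 and 30.3 CPM in 3-D, so libraries of a condition lay far apart. U2AF1 measured 12.0 and 12.8 CPM in 2-D and 14.1 and 24.0 CPM in 3-D, and 1 library carries most of its change. ZRSR2, a U2AF1 relative of the minor spliceosome, had a change of 0.30, CHERP 0.17 and DDX42 0.13. SF1, the first protein at the branch site, rose from 312 and 309 CPM to 335 and 333 CPM, a change of 0.10 (edgeR adjusted p = 0.0499). PHF5A, an SF3b subunit outside the member list, had a change of 0.037 that was not called.

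Kinases and importers of SR proteins had few calls. Of 11 tested genes, 1 was called higher and 1 lower (9.09% each, against 4.54% and 3.36% of all genes). PRPF4B was the gene called higher (0.11), and TNPO1, which imports hnRNP A1, the gene called lower (-0.11). TNPO1 measured 468 and 466 CPM in 2-D and 431 and 432 CPM in 3-D, and its call was lost under a likelihood ratio test, with length and GC offsets and without either 2-D replicate. The call of PRPF4B was lost under DESeq2, a likelihood ratio test, library size only and a minimum of 10 counts per library. SRPK1, the main cytoplasmic SR kinase, was at 282 and 284 CPM against 286 and 278 CPM. Among 39 other hnRNP-type and splicing regulators, 12.8% were called higher and 2.56% lower, against 4.54% and 3.36% of all genes. The 5 called higher were RALY (0.23), RBM10 (0.23), RBM25 (0.17), CIRBP (0.17) and RBMX (0.16), and TIA1 was called lower (-0.13) by edgeR but not by DESeq2.

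**Figure D4:**
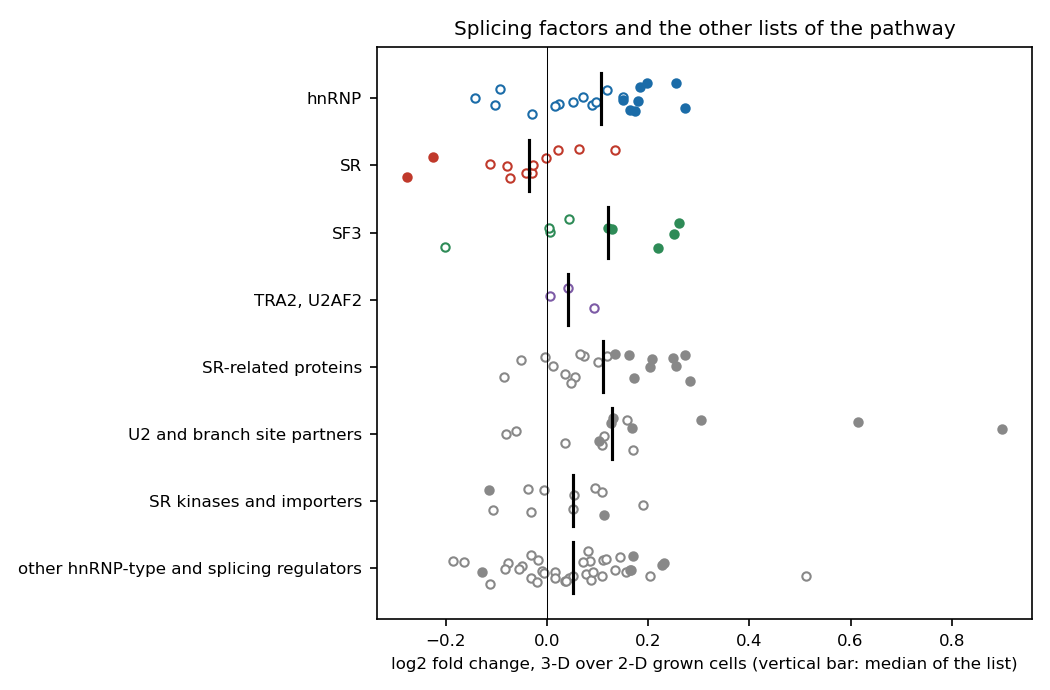
Log2 fold changes, 3-D over 2-D grown cells (horizontal axis), of the tested genes of each list, with called genes filled and the median as a vertical bar; vertical scatter within a list only separates the points. Medians of the hnRNP, SF3 and SR-related lists lie between 0.11 and 0.12, and that of the SR genes at -0.035.

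**Figure D5:**
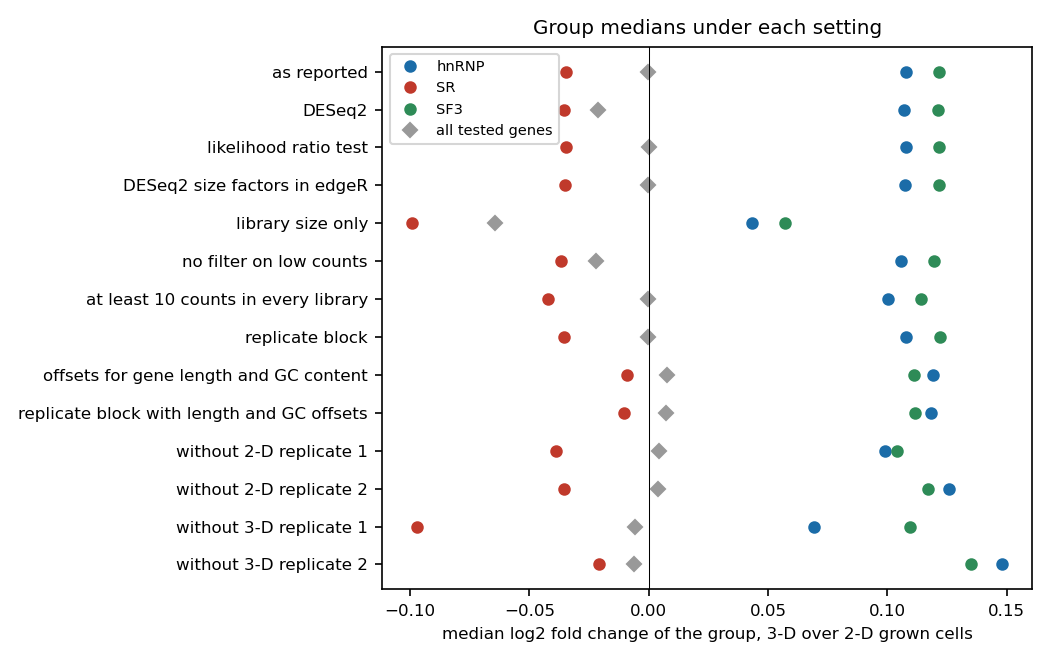
Median log2 fold change of the hnRNP, SR and SF3 genes and of all genes tested (horizontal axis) under each setting. With library size only, hnRNP and SF3 medians were 0.043 and 0.057 and that of all genes -0.065, and without 3-D replicate 1 the hnRNP median was 0.069.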

How the data were processed

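RNA was analysed in 4 libraries of Elf1 cells, 2 per condition. The authors trimmed reads with Trim Galore 0.6.3, mapped them to hg38 with HISAT2 2.1.0 and counted them on GENCODE genes by featureCounts 1.6.4. What the authors deposited are raw counts, 1 whole number per gene and library. A deposited table of size-factor normalized values with the authors' DESeq2 fold changes, standard errors, Wald statistics and p-values was not used. How the counting treated strand, multiply mapping reads and reads shared by overlapping genes is not given in the sources used here.

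The methods name an older GENCODE release for the counting than release 44, from which names, exon lengths and shared exonic bases were taken here, and 60295 of 60564 identifiers matched it. The counts were fitted in edgeR 4.0.16 (R 4.3.3; TMM, default filter, quasi-likelihood test on condition, Benjamini-Hochberg adjustment), and intervals of 95% used the test's standard error and degrees of freedom. Libraries of a condition differed by more than sampling noise (chi-square per degree of freedom 2.51 in 2-D, 4.15 in 3-D), so each was kept as a replicate, and the biological coefficient of variation was 5.10%. The procedure was tested on simulated counts for 22555 genes in this comparison. It recovered 100 of 100 changes of log2 1 and 80 of 100 of 0.5, with 6 false calls. All called members changed by less than 0.5 in either direction, and the recovery of changes of that size was not tested.

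Alternatives were DESeq2 1.42.0, a likelihood ratio test, DESeq2 size factors, library size only, no filter, a minimum of 10 counts per library, a replicate block, spline offsets (5 degrees of freedom) for length and GC content, both together, and leaving out each library, where a lone library is assumed to vary like the others. Copies were found with minimap2 2.31. Tables and figures used Python 3.11.15, pandas 2.3.3, numpy 2.4.6, scipy 1.17.1 and matplotlib 3.10.9. Of the members, all may be named; of the companion lists, the 5 largest called changes, U2AF1, PHF5A and SF1 are named. A planned list is not reported here. Members and lists were chosen with earlier results of these data known. Promoters come from RefSeq (GRCh38.p14), with 40 of 44 members matched, and SF3B3, HNRNPA1, SRSF2 and TRA2A were not.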

Additional observations from a re-analysis of the deposited data

How the results depend on the processing

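Against the values of the report, the following counts of calls differed by over 1.5 times, and the cause was not tested. DESeq2 called 511 higher and 284 lower of all genes, 3 higher of SF3 genes, 0 higher of SR kinases and importers, 0 higher of U2 partners and 0 lower of other regulators. The likelihood ratio test called 651 higher and 488 lower of all genes, 3 higher of SF3 genes, 0 higher and 0 lower of SR kinases and importers, 3 higher of U2 partners and 2 higher and 0 lower of other regulators. Scaling by library size only gave calls of 514 higher and 1879 lower of all genes, 5 higher and 3 lower of hnRNP genes, 4 lower of SR genes, 3 higher and 1 lower of SF3 genes, 0 higher and 2 lower of SR kinases and importers, 0 higher and 2 lower of U2 partners and 2 higher and 6 lower of other regulators. Without a filter on low counts the calls were 2 lower of hnRNP genes, 1 higher of SR genes, 1 lower of SF3 genes, 2 higher of SR kinases and importers and 9 higher and 2 lower of other regulators. A minimum of 10 counts per library gave 1 lower of SF3 genes, 0 higher of SR kinases and importers, 4 higher of U2 partners and 2 lower of other regulators. With the replicate block the calls were 1 lower of hnRNP genes, 1 higher of SR genes, 1 lower of SF3 genes, 2 higher of SR kinases and importers and 8 higher and 2 lower of other regulators. Offsets for length and GC content gave 1 higher of SR genes and 2 higher and 0 lower of SR kinases and importers. Block and offsets together gave 2 lower of hnRNP genes, 1 higher of SR genes and 2 higher and 0 lower of SR kinases and importers. Leaving out 1 library at a time gave calls of 560 to 1468 higher and 414 to 1175 lower of all genes, 6 to 13 higher and 0 to 2 lower of hnRNP genes, 0 to 2 higher and 2 to 5 lower of SR genes, 3 to 5 higher and 0 to 1 lower of SF3 genes, 0 to 2 higher of TRA2A, TRA2B and U2AF2, 1 to 3 higher and 0 to 1 lower of SR kinases and importers, 0 to 1 lower of SR-related genes, 2 to 8 higher and 0 to 1 lower of U2 partners and 4 to 9 higher and 0 to 2 lower of other regulators.

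The direction of log2 changes that were not called turned in these genes: with library size only HNRNPK (-0.041), HNRNPU (-0.012), HNRNPUL2 (-0.047), SRSF4 (-0.0016), SRSF10 (-0.041), SF3B1 (-0.020), SF3B3 (-0.058), SF3B6 (-0.061), TRA2A (-0.023) and TRA2B (-0.058), then with at least 10 counts SF3B3 (-0.0016), SF3B6 (-0.0037) and TRA2B (-0.0015), then with the offsets SRSF2 (0.0042), SRSF6 (0.027), SRSF11 (0.0046) and SF3B3 (-0.013), then with block and offsets SRSF2 (0.0041), SRSF6 (0.026), SRSF11 (0.0028) and SF3B3 (-0.013). Leaving out a library turned SRSF4 (-0.025 to 0.15), SRSF6 (-0.019 to 0.017), SRSF8 (-0.10 to 0.015), SRSF10 (-0.0046 to 0.050), SRSF11 (-0.11 to 0.049), SF3B3 (-0.021 to 0.036), SF3B6 (-0.028 to 0.035), TRA2A (-0.043 to 0.12) and TRA2B (-0.018 to 0.032).

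Deviations of same-numbered libraries correlated at -0.012 across all genes tested. This value cannot decide whether same-numbered libraries were paired, which the sources used here do not state. With the replicate block, HNRNPH2, HNRNPH3 and SRSF5 were called higher and HNRNPA0, SRSF7 and SF3B5 lower in addition to the called members, and no call of the members was lost. Of the 15 called members, 9 were called in all 13 alternatives, HNRNPA1, HNRNPA3, HNRNPC, HNRNPUL1, SF3A2, SF3B2, SF3B4, SRSF1 and SRSF9, and none of the 15 changed direction in any. The 3-D libraries held fewer counts than the 2-D libraries, and a call that misses the threshold does not show equal levels.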
